A study of Mus musculus with 109 samples.

Results

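The genes described here encode the machinery that copies DNA in S phase. The list holds 46 genes, all of which were found among the 15973 genes of the deposited count table. It was drawn up by function and not from measured values, but with earlier results of these data known. They were followed in 109 single cells from cerebella of C57BL/6 mice at postnatal day 7, the age at which granule cell progenitors divide rapidly in the external granule layer. The cells were purified on a Percoll density gradient, captured on a C1 Fluidigm chip and sequenced with the Smart-seq method, which reads whole transcripts. The labels give 1 strain and 1 age and no treatment, so the only contrasts were between cells. The sample titles place the cells in 6 library groups of 18 or 19 cells, and no source used here links these to the independent batches that the study's text speaks of. The strain is that of the labels, while the study's methods name ICR pups for its mouse experiments.

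Each origin of replication is first bound by the origin recognition complex (Orc1 to Orc6), which recruits Cdc6 and Cdt1 to load the Mcm2 to Mcm7 helicase, a step that geminin (Gmnn) blocks by binding Cdt1. Cdc45, the GINS complex and Mcm10 then activate the helicase, the polymerase alpha and primase complex lays down primers, and polymerases delta and epsilon extend them on the sliding clamp Pcna, which the Rfc complex loads. Replication protein A (Rpa1 to Rpa3) coats exposed single strands, Fen1, Rnaseh2a and Lig1 finish the lagging strand, and ribonucleotide reductase (Rrm1 and Rrm2), thymidylate synthase (Tyms) and thymidine kinase (Tk1) supply deoxynucleotides. Many of these genes are known targets of the E2F factors, which switch them on at the passage from G1 to S phase.

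Cells were classed by Mki67, the gene of the Ki-67 antigen of dividing cells, in CPM (a count scaled so that the counts of every cell have the same total). With at least 100 CPM of Mki67, 32 cells were Mki67-high, and with under 10 CPM, 75 cells were Mki67-low. The lowest Mki67-high cell had 132 CPM and the highest Mki67-low cell 9.27 CPM, and the remaining 2 cells, with 21.3 and 66.4 CPM, stayed out of the comparison. Every library group held cells of both classes, with 3 to 8 Mki67-high and 10 to 15 Mki67-low cells. Totals ran from 1110182 to 8616017 counts per cell, apart from 1 cell between the limits with 15071 counts. A median of 4967.5 genes had a count in Mki67-high cells and 4193 in Mki67-low cells, so the classes differed in detected genes as well. In 2 Mki67-high cells, of library groups 3 and 6, 13533 and 12684 genes had a count, and 8 and 7 of 8 astroglial markers reached 50 CPM. With the cell of 15071 counts they are called cells of unusual depth below, and results are also given without them. For these 2 cells the name refers to the number of genes, since their totals of 6902230 and 7900211 counts lay within the range above.

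The label of granule lineage cells was checked against marker genes. At least 4 of 8 granule lineage markers (Pax6, Zic1, Zic2, Barhl1, Meis1, Neurod1, Atoh1 and Cntn2) reached 50 CPM in 26 of 32 Mki67-high and 52 of 75 Mki67-low cells. For each marker list the CPM of its genes were added up in each cell and averaged over the cells of a class by library group. For the 8 postmitotic markers, such as Dcx, these averages were 2251 to 4272 CPM in Mki67-high and 7432 to 12056 CPM in Mki67-low cells, without overlap. The 4 inhibitory neuron markers (Pax2, Gad1, Gad2 and Slc6a5) did not overlap either, with 0 to 20.5 CPM in Mki67-high and 41.4 to 1011 CPM in Mki67-low cells, and 8 Mki67-low and 0 Mki67-high cells had at least 2 of these 4 genes at 50 CPM. Oligodendrocyte markers had 54.8 to 2189 CPM in Mki67-high and 288 to 1945 CPM in Mki67-low cells. Astroglial markers had 316 to 3109 CPM in Mki67-high and 342 to 3916 CPM in Mki67-low cells, and 3 Mki67-high and 2 Mki67-low cells had at least 5 of these 8 genes at 50 CPM. Microglial markers reached 0 to 154 CPM in Mki67-high and at most 0.799 CPM in Mki67-low cells, with Aif1 not among the listed genes. A fit without the cells with at least 5 astroglial markers is given at the end. The part of the other cell types in the results below was not tested.

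Promoter sequences of the replication genes are shown first, and the list did not use the E2F letters in them. Many of these genes are known E2F targets, however, so the share with such letters is not independent of a choice by function. RefSeq windows of 300 bases (GRCm38.p6, 250 bases before to 50 bases after an annotated start) were available for 38 of the 46 genes. They were searched on both strands for TTTGGCGC, TTTCCCGC, TTTGCCGC and TTTCGCGC, spellings of the E2F site. In 15 of 38 replication genes (39.5%) at least 1 window held such letters, against 2.6% of all 27025 genes with a window and 4.74% of the 9643 genes that were also in the count table. The 15 genes were Cdt1, Cdc6, Orc1, Orc3, Mcm3, Mcm5, Mcm6, Mcm7, Gins3, Pola1, Pold1, Pold3, Pole2, Rfc3 and Lig1. The windows of 3 helicase subunits with more than 1 match, and of Rrm2, the replication gene with the highest level, are printed with the E2F letters in capitals, each from 5′ to 3′ on the strand of its gene.
Mcm5, chr8:75109259-75109558, plus strand: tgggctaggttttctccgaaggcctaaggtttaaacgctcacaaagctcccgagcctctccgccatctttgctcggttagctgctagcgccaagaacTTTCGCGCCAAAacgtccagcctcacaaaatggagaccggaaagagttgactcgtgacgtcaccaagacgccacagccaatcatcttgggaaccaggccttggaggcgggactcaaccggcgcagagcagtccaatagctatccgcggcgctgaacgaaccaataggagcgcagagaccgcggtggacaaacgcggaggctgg
Mcm6, chr1:128359656-128359955, minus strand: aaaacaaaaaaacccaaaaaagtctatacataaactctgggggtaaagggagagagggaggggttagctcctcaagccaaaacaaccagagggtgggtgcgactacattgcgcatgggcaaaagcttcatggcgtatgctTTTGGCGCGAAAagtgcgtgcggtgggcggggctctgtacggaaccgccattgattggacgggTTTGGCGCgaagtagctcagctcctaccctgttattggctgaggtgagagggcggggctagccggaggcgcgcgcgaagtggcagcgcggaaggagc
Mcm7, chr5:138171834-138172133, minus strand: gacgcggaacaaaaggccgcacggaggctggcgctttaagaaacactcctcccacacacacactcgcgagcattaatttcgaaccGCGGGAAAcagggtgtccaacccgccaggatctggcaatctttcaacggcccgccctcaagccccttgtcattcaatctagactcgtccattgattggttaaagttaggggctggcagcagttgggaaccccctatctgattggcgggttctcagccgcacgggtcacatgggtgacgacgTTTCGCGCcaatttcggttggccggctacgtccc
Rrm2, chr12:24708004-24708303, plus strand: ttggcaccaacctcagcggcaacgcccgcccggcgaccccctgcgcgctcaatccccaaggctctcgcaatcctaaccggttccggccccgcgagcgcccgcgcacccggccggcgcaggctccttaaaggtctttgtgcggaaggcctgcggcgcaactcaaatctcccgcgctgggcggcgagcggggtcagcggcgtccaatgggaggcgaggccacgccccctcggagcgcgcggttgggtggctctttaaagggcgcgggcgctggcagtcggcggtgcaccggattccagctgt

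The capitals in the Mcm5 window and the first run in the Mcm6 window each hold 2 matches on opposite strands that overlap. Rrm2 held none of these letters in this window, which says only that these spellings are absent there. The CCAAT letters, read on both strands, stood in 24 of 38 genes (63.2%) against 41.1% of all genes with a window and 43.8% of those in the count table. The letters TTTGAA and TTCGAA, spellings of the cell cycle homology region of G2/M promoters, stood in 7 of 38 genes (18.4%), which lay between the 21.7% of all genes with a window and the 16% of those in the count table. Mcm4, Gmnn, Gins1, Gins2, Gins4, Prim2, Pole and Rfc2 had no entry. The matches are a description of letters and do not show that a factor binds.

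**Figure D1:**
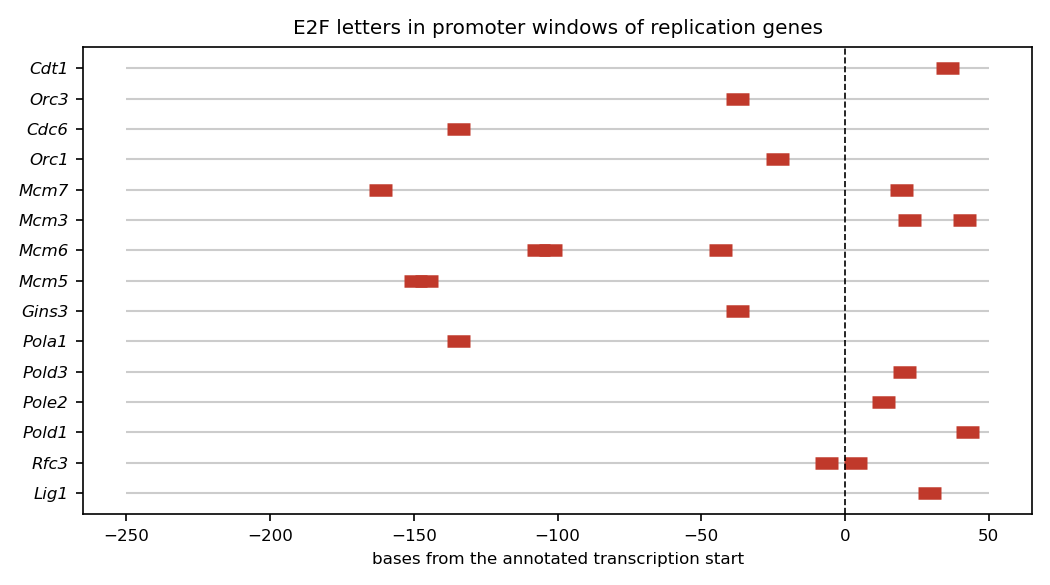
Positions of E2F letters in the promoter windows of the 15 replication genes that hold them. The x axis is the distance in bases from the annotated start (dashed line), grey lines are the windows and red blocks the matches, which lie from 165 bases before to 46 bases after the start.

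Replication genes were detected in more Mki67-high than Mki67-low cells across nearly the whole list, but most of them in a minority of cells of either class. A gene counted as detected at 10 CPM or more. Mki67-high cells had a median of 13 of the 46 genes (range 3 to 43), and Mki67-low cells a median of 4 (range 0 to 27). The median of Mki67-high cells was above that of Mki67-low cells in each of the 6 library groups, at 9 against 3, 13.5 against 4, 10 against 3, 17 against 3, 15 against 4 and 28 against 5. The cells of the classes overlapped in every library group but the fourth, where the Mki67-high cells had 11 to 23 genes and the Mki67-low cells 0 to 9. Without the cells of unusual depth the medians were 12.5 and 4, and after every cell was thinned to 1110182 counts they were 13.5 and 4. With any count as detection the medians were 25.5 and 16, so that the size of the difference depends on the level that counts as detected. The cell between the limits with 15071 counts was left out of the thinned values. These kept the limit of 10 CPM, which already scales with the total of a cell, so thinning could change them little.

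**Figure D2:**
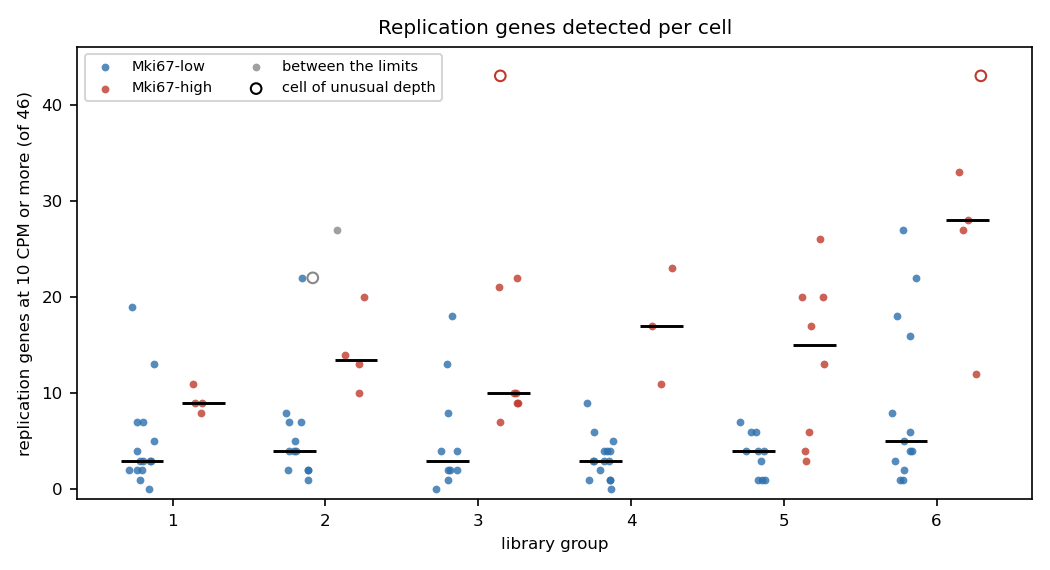
Number of the 46 replication genes at 10 CPM or more in each cell (y axis) by library group (x axis), with Mki67-low cells in blue, Mki67-high cells in red, cells between the limits in grey, medians as black bars and cells of unusual depth as open circles. The red median lies above the blue median in all 6 library groups, while 9 blue cells reach 13 or more genes.

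By gene, the pooled share of cells with detection was higher in the Mki67-high class for 45 of 46 replication genes, with Orc3 as the exception, against 75.9% of all genes. The median difference of these shares was 24.1 percentage points over the replication genes and 4.92 points over all genes. In 11 of 46 genes (23.9%) the share was higher in Mki67-high cells in 6 of 6 library groups, against a background of 4.05% of 13274 genes. These were Orc6, Mcm7, Mcm10, Prim2, Rfc1, Rpa1, Rpa2, Lig1, Rrm1, Rrm2 and Tyms. A further 19 genes were higher in 5 library groups, 7 in 4 and 9 in 3 or fewer. No replication gene had a lower share in all 6, which 0.181% of all genes did. Without the cells of unusual depth 9 genes were higher in 6 of 6 library groups, and with any count as detection 13 were. The background of 4.05% belongs to detection at 10 CPM with the cells of unusual depth kept. No share of all genes is given for the other settings, so their counts cannot be set against it.

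**Figure D3:**
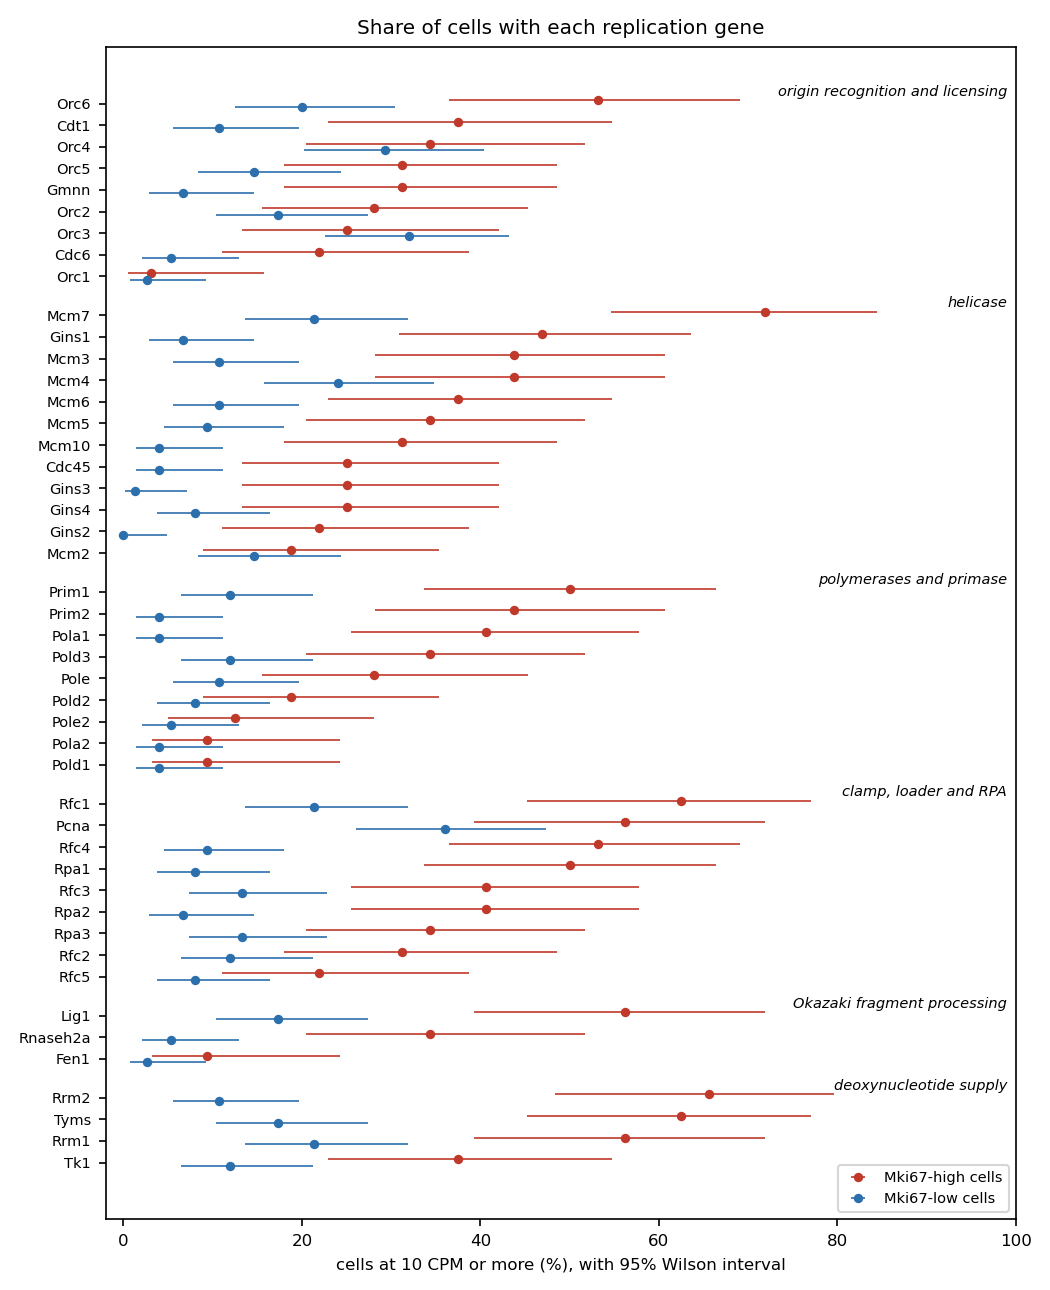
Share of Mki67-high (red, n = 32) and Mki67-low cells (blue, n = 75) with each replication gene at 10 CPM or more, in percent on the x axis with 95% Wilson intervals, grouped by role and ordered by the red value. Mcm7 reached 71.9% of Mki67-high cells, and Orc3 alone had its red point left of its blue point.

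The 9 genes of origin recognition and licensing had median shares of 31.2% in Mki67-high and 14.7% in Mki67-low cells. Orc3 was detected in 8 of 32 Mki67-high cells and 24 of 75 Mki67-low cells (25% and 32%), Orc4 in 34.4% and 29.3%, and Orc2 in 28.1% and 17.3%. Intervals of the classes overlapped for all 3 of these subunits, which were also found in many cells with little or no Mki67. Orc1, the subunit that is known to vary with the cell cycle, had a count in only 6 cells of the table and reached 10 CPM in 1 Mki67-high and 2 Mki67-low cells. Orc6 was detected in 53.1% of Mki67-high cells (95% Wilson interval 36.4 to 69.1%) and 20% of Mki67-low cells (12.5 to 30.4%). Cdc6 was detected in 7 of 32 and 4 of 75 cells. The intervals treat the cells as independent and cover counting error only.

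Levels of the licensing genes were read from sums. In each library group the counts of the Mki67-high cells were added up, likewise those of the Mki67-low cells, and each sum was given as CPM. For Orc6 the Mki67-high sums had 7.89 CPM at the lowest, 124 at the median and 262 at the highest, and the Mki67-low sums 0.511, 56.2 and 115. For Orc4 the values were 0.263, 54.9 and 447 CPM in Mki67-high and 0, 82.9 and 269 CPM in Mki67-low sums. Both genes overlapped widely between the classes, and the median of Orc4 was lower in the Mki67-high sums. Cdt1, the loading factor, had 0, 106 and 463 CPM in Mki67-high and 0.0753, 7.88 and 326 CPM in Mki67-low sums. Its highest Mki67-low sum came from library group 1, and a single cell held 72.4% of the Cdt1 counts of the Mki67-low class. Gmnn, its inhibitor, had 0.15, 72.3 and 229 CPM against 0, 1.79 and 224 CPM, with the highest sums of both classes in library group 2.

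Cdt1 and geminin protein are known to alternate over the cell cycle, and their transcripts were therefore compared within cells. Among the 32 Mki67-high cells 5 had both genes, 7 had Cdt1 alone, 5 had Gmnn alone and 15 had neither. Among the 75 Mki67-low cells 3 had both, 5 had Cdt1 alone, 2 had Gmnn alone and 65 had neither. Cells with both transcripts were thus as many as cells with Gmnn alone among the Mki67-high cells. However, 2 of the 5 cells with both were the cells of unusual depth, and without them cells with both were fewer. Cdc6 and Cdt1, the pair of loading factors, were found together in 4 Mki67-high cells, with 3 cells for Cdc6 alone and 8 for Cdt1 alone. The cells of unusual depth were 2 of these 4.

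All 12 helicase genes had a higher share in Mki67-high cells, with a median over genes of 32.8% against 8.67%. Mcm7 was found in 23 of 32 Mki67-high cells, 71.9% (54.6 to 84.4%), and in 16 of 75 Mki67-low cells, 21.3% (13.6 to 31.9%). Its Mki67-high sums ran from 70.4 through a median of 390 to 1194 CPM, and its Mki67-low sums from 5.02 through 195 to 267 CPM. The Mki67-high sum was the higher in 5 of 6 library groups, with library group 5 as the exception at 70.4 against 194 CPM. Mcm10, which helps to start the helicase, was found in 10 of 32 and 3 of 75 cells. Its sums were 7.29, 43.3 and 1204 CPM in the Mki67-high and 0, 0.766 and 109 CPM in the Mki67-low class, higher in the former in 6 of 6 library groups although the ranges overlapped. Mcm4 had 1.21, 271 and 977 CPM against 0, 172 and 512 CPM, and the ranges overlapped over most of their width.

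Gins2, a subunit of GINS, was found in 7 of 32 Mki67-high cells. None of the 75 Mki67-low cells reached 10 CPM of it (95% Wilson interval up to 4.87%), while 8 of them had a count. Its Mki67-low sums did not exceed 0.324 CPM. It did not pass the filter on low counts, and 67.3% of its exon bases lie opposite to exons of Gse1. Gins3 was found in 8 of 32 and 1 of 75 cells, and Cdc45, the helicase partner of GINS, in 8 of 32 and 3 of 75. Mcm2, in contrast to its partners, was found in 18.8% and 14.7% of cells.

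The 6 subunits of the Mcm2 to Mcm7 ring were seldom detected together. In Mki67-low cells, 42 of 75 had none of the 6 and 20 had 1. Of the 32 Mki67-high cells, 4 had none, 10 had 2 and 6 had 3. All 6 subunits were at 10 CPM or more in 2 Mki67-high cells, which were the cells with 13533 and 12684 genes, and in 2 Mki67-low cells. A gene below 10 CPM in a single cell cannot be read as absent, since it may still have had counts.

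**Figure D4:**
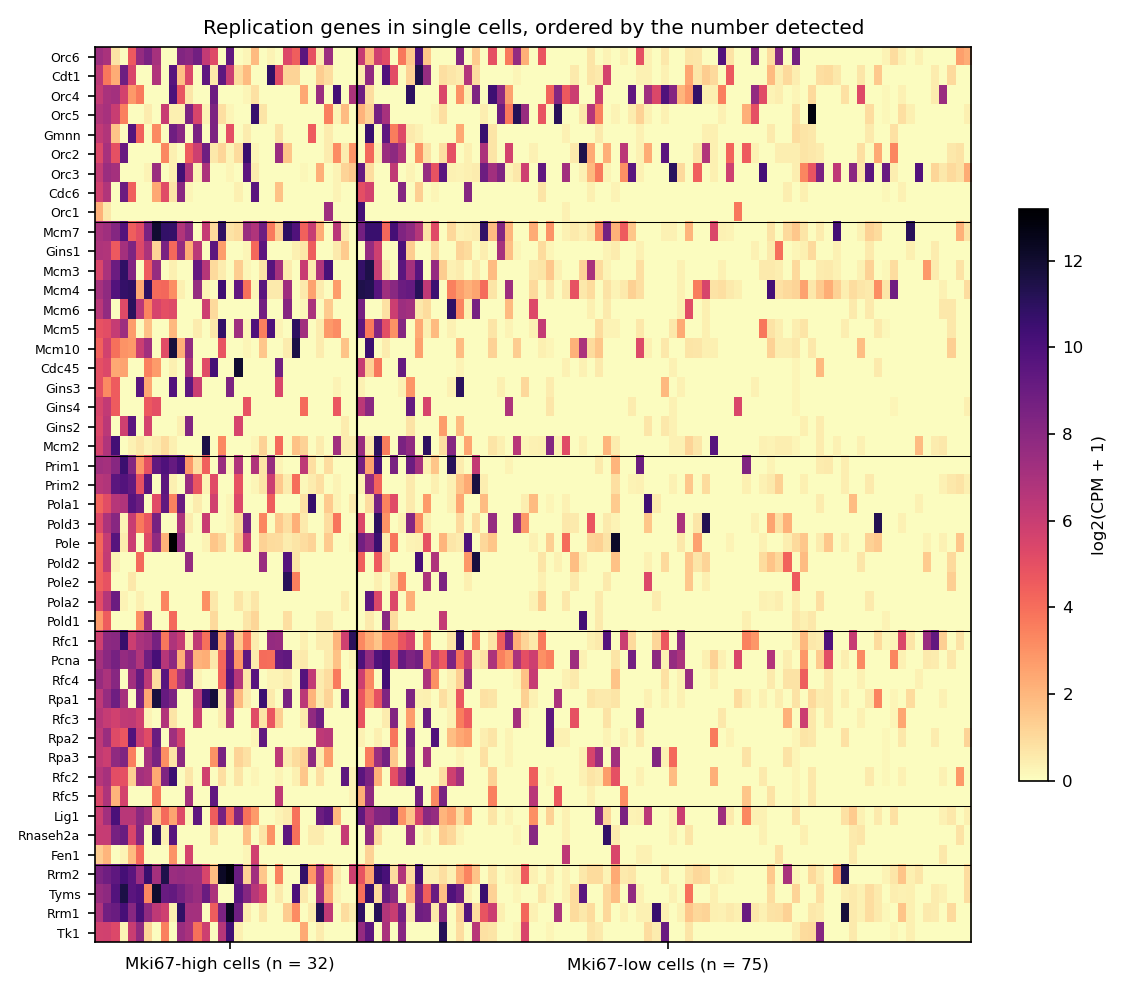
Level of each replication gene (rows, grouped by role) in each cell (columns, ordered by the number of genes detected within the class), as log2(CPM + 1). The Mki67-high cells (left, n = 32) are darker over most rows than the Mki67-low cells (right, n = 75), and 9 Mki67-low cells next to the dividing line carry 13 to 27 of the genes.

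Polymerase and primase genes had a median share of 28.1% in Mki67-high and 5.33% in Mki67-low cells. The primase subunits were detected in more cells than most of this group, with Prim1 in 16 of 32 against 9 of 75 cells and Prim2 in 14 of 32 against 3 of 75. For Prim1, which makes the RNA primer, the sums were 0, 159 and 454 CPM against 0, 30.3 and 289 CPM. Pola1, the catalytic subunit of polymerase alpha, was found in 13 of 32 and 3 of 75 cells, with sums of 0, 57.5 and 192 CPM against 0, 1.43 and 119 CPM. Pole, the catalytic subunit of polymerase epsilon, had 11.7, 23.1 and 3262 CPM against 0.0251, 44.3 and 784 CPM. The median of Pole was lower in the Mki67-high sums, while its mean over cells was higher (340 against 105 CPM), and a single cell held 83.3% of the Pole counts of the Mki67-high class. Pold1, Pola2 and Pole2 were detected in at most 4 cells of either class.

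Rpa1, the large subunit of replication protein A, was found in 16 of 32 Mki67-high cells, 50% (33.6 to 66.4%), and in 6 of 75 Mki67-low cells, 8% (3.72 to 16.4%). Its Mki67-high sums had 32.5, 250 and 1111 CPM and its Mki67-low sums 0.326, 4.37 and 34.7 CPM, so that the ranges met only at their ends and the Mki67-high sum was the higher in 6 of 6 library groups. Rfc1, the large subunit of the loader, had 5.09, 242 and 530 CPM against 0.671, 27.6 and 235 CPM. Pcna was the most widely detected replication gene of the Mki67-low class, in 27 of 75 cells (36%) against 18 of 32 (56.2%). Its sums were 90.9, 178 and 390 CPM in Mki67-high and 21.5, 44.7 and 288 CPM in Mki67-low cells, which overlapped. The table also lists the pseudogene Pcna-ps2, and reads that fit both could not be told apart.

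Of the genes that finish the lagging strand, Lig1, the ligase, was found in 18 of 32 and 13 of 75 cells. Its sums were 31.1, 108 and 312 CPM against 7.73, 36.6 and 111 CPM, higher in Mki67-high cells in 6 of 6 library groups with overlapping ranges. Rnaseh2a, which removes RNA primers, was found in 11 of 32 and 4 of 75 cells, with sums of 0, 139 and 287 CPM against 0, 6.8 and 280 CPM. Fen1, the flap endonuclease, was nearly undetected, in 3 of 32 and 2 of 75 cells, with a highest sum of 18.5 CPM. An antisense gene, Gm10143, covers 78.8% of its exon bases, and the strand setting of the counting is not given in the sources used here.

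The 4 genes of deoxynucleotide supply had median shares of 59.4% in Mki67-high and 14.7% in Mki67-low cells. Rrm2, the small subunit of ribonucleotide reductase, was found in 21 of 32 Mki67-high cells, 65.6% (48.3 to 79.6%), and in 8 of 75 Mki67-low cells, 10.7% (5.5 to 19.7%). Its Mki67-high sums had 22.1, 706 and 1371 CPM and its Mki67-low sums 0.699, 56.2 and 184 CPM. The Mki67-high sum was at or above 609 CPM in every library group but the first, where it was 22.1 CPM against 184 CPM in the Mki67-low sum. Per kilobase of exon, Rrm2 led the list in Mki67-high cells with 265 CPM per kb, followed by Mcm7 with 110, Rfc4 with 107 and Mcm4 with 87.4 CPM per kb. Tyms was found in 20 of 32 and 13 of 75 cells, with sums of 93.7, 311 and 1050 CPM against 0.0502, 66.5 and 311 CPM. Rrm1, the large subunit, was found in 18 of 32 and 16 of 75 cells, with sums of 39.4, 302 and 1243 CPM against 15.6, 108 and 437 CPM. Tk1 was found in 12 of 32 and 9 of 75 cells.

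**Figure D5:**
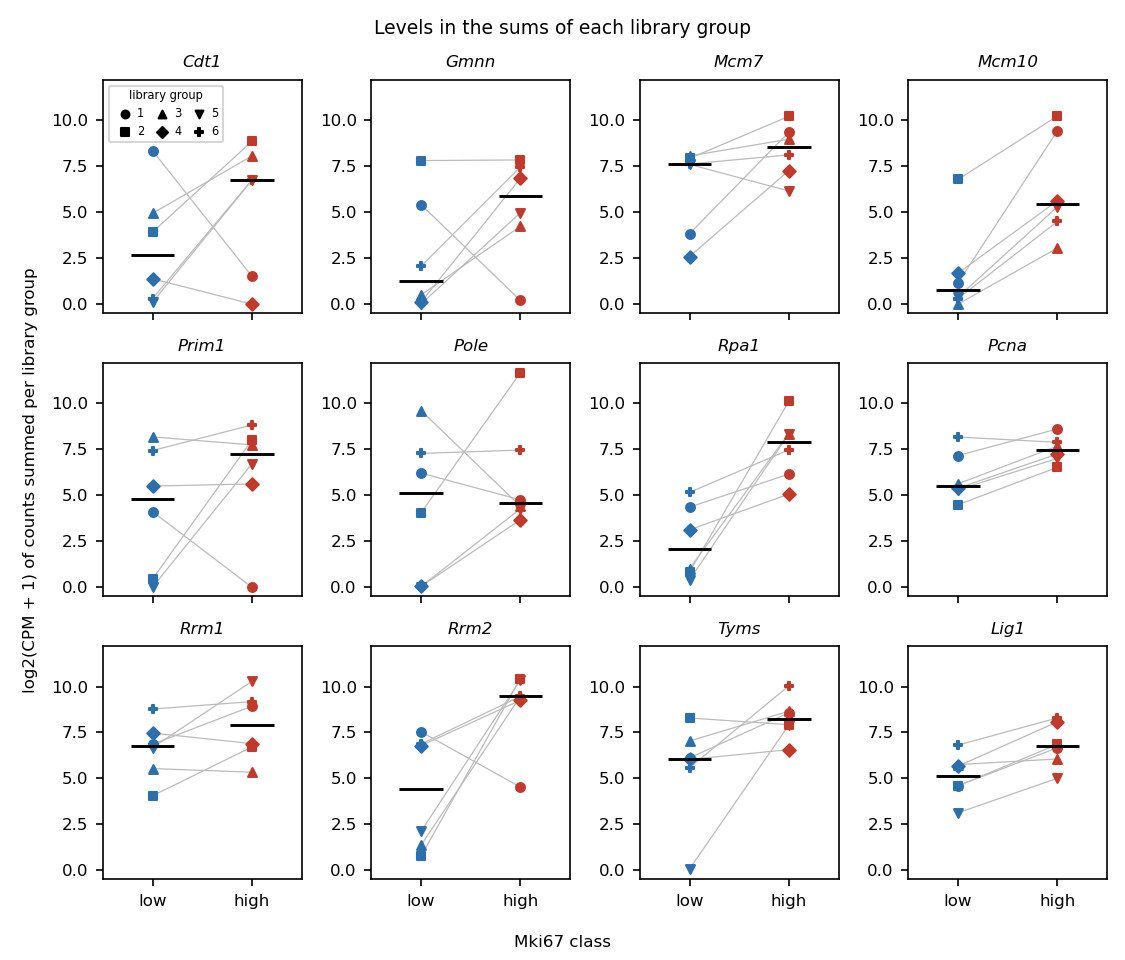
Level of 12 replication genes in the counts summed per library group, as log2(CPM + 1), in Mki67-low (blue) and Mki67-high cells (red), with a marker shape for each library group, grey lines joining the sums of a library group and black bars for medians. Rpa1, Mcm10 and Lig1 were higher in the Mki67-high sum of all 6 library groups, and the medians of Pole run the other way.

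Whether single genes differed beyond the spread between library groups was tested on these sums with edgeR's quasi-likelihood test and Benjamini-Hochberg adjustment over all genes. Of 9084 genes tested, 6 were higher in Mki67-high cells at an adjusted p under 0.05 (0.0661%) and none lower, and 0 of the 44 replication genes that passed the filter on low counts were among them. The 6 were Tacc3, Cdc20, Bub1, Aurkb, Stil and Cdca3, which act in mitosis and at centrosomes. At an unadjusted p under 0.05 there were 3 replication genes (6.82%), Rpa1, Rrm2 and Mcm10, all higher, beside 666 of all genes (7.33%). The share of replication genes was thus not above that of all genes. The log2 fold change was above 0 for 37 of 44 replication genes (84.1%) and for 45.2% of all genes. Its median was 1.20 over the replication genes and -0.18 over all genes. No replication gene had Mki67-high sums that lay wholly above its Mki67-low sums, against 0.407% of all genes. The biological coefficient of variation, the spread between sums of a class relative to their mean, was 172%.

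Within the sums, Rpa1 had a log2 fold change of 4.99 ± 1.33 (SE, edgeR adjusted p = 0.372), the lowest adjusted p of the list. Rrm2 had 3.46 ± 1.20 (edgeR adjusted p = 0.517) and Mcm10 had 4.21 ± 1.91 (edgeR adjusted p = 0.671). Mcm5 had 3.70 ± 1.78 and Rfc4 2.93 ± 1.54, with edgeR adjusted p of 0.677 and 0.705. The remaining genes of smallest p in each role were Cdc6 with 3.18 ± 2.13, Orc6 with 1.08 ± 1.21, Pole2 with 3.96 ± 2.46, Prim2 with 1.99 ± 1.83, Lig1 with 1.67 ± 1.02, Fen1 with 1.30 ± 1.66 and Rrm1 with 1.51 ± 0.91, each with an edgeR adjusted p of 0.747 or above. Leaving out 1 library group moved several of these values by over 1.5 times, to 8.03 for Mcm10 without library group 2, to 7.49 for Mcm5 without library group 6, and to 5.03 for Rfc4 and 5.57 for Prim2 without library group 1. It also moved Cdc6 to 1.57 and Fen1 to -0.042 without library group 4, Orc6 to 1.68 without library group 1 and to 0.68 without library group 4, and Rrm1 to 0.79 without library group 5. Pole2 turned to -1.88 with the library group as a block and to -1.78 without library group 1, and a single cell held 93.2% of its Mki67-high counts. DESeq2 on the same sums called Rpa1 (adjusted p = 0.00017), Gins2 (adjusted p = 0.00035) and Rrm2 (adjusted p = 0.0301), against a background of 4.27% of genes called higher.

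A sum can be set by a single deep or bright cell, and an alternative test gave each cell the same weight. For every library group, log2(CPM + 1) was averaged over its Mki67-high and over its Mki67-low cells, and the averages were compared with limma. It called 6 of 44 replication genes higher and none lower, against 1.9% of all genes called higher. The 6 were Rrm2 with a difference of 4.94 ± 0.91 (SE, limma adjusted p = 0.0026), Tyms with 4.26 ± 0.85 (limma adjusted p = 0.0048), Rpa1 with 3.79 ± 0.78 and Mcm7 with 3.79 ± 0.78 (limma adjusted p = 0.0053 for each), Gins1 with 3.13 ± 0.84 (limma adjusted p = 0.0412) and Rfc4 with 2.97 ± 0.79 (limma adjusted p = 0.0401). The differences are on the log2(CPM + 1) scale, where the median of all genes was 0.43 and that of the replication genes 1.79. Of the replication genes 43 of 44 were above 0 (97.7%), against 75.6% of all genes. These averages depend on the number of cells with a gene as well as on its level.

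Mcm7, Rpa1, Rrm2 and Tyms were called by limma in each of the 6 fits that left out a library group and without the cells of unusual depth, where 1.17% of all genes were called higher. Rfc4 was called in 2 and Gins1 in 1 of the 6 fits. Mcm7, a helicase subunit, lies at chr5:138164583-138172422, Rpa1 at chr11:75298166-75348324, Rrm2 at chr12:24708241-24714146 and Tyms at chr5:30058202-30073617 (GRCm38). By role, limma called 0 of 8 origin and licensing genes, 2 of 11 helicase genes, 0 of 9 polymerase and primase genes, 2 of 9 clamp, loader and binding genes, 0 of 3 of Okazaki fragment processing and 2 of 4 of deoxynucleotide supply. With the library group as a replicate block limma called 14 replication genes against a background of 3.5%, adding Mcm5, Mcm10, Prim1, Prim2, Rfc1, Rpa2, Lig1 and Rrm1. By role these were 0 of 8, 4 of 11, 2 of 9, 4 of 9, 1 of 3 and 3 of 4 genes, so the counts of 0 for polymerase and primase genes and for Okazaki fragment processing did not hold with the block. The median differences of the roles were 1.19, 2.18, 1.12, 1.89, 2.22 and 3.60 on the log2(CPM + 1) scale. Differences between roles were not tested.

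Other lists of cell cycle genes gave a frame for these values. Of 31 further replication factors 23 were tested, edgeR called 0 and limma 3, Dut with 3.77 ± 0.75, Clspn with 2.69 ± 0.70 and Dtymk with 3.09 ± 0.81 (limma adjusted p = 0.0048, 0.0353 and 0.0369). Dut and Dtymk act in the same nucleotide supply as Tyms, and Clspn, a mediator of the replication checkpoint, was found in 12 of 32 and 0 of 75 cells. Of 16 tested regulators of the G1 to S transition edgeR called 0 and limma only Ccna2, the cyclin A2 gene, with 4.61 ± 0.67 (limma adjusted p = 0.00019). Of 9 tested genes of chromatin assembly and maintenance at forks edgeR called 0 and limma Uhrf1 with 4.24 ± 0.84 and Dnmt1 with 2.59 ± 0.71 (limma adjusted p = 0.0048 and 0.0485). The G2/M genes differed more, with 3 of 15 called by edgeR (Cdc20, Bub1 and Aurkb) and 14 of 15 by limma, and a median log2 fold change of 4.76 in the sums against 1.20 for the replication genes. The latter difference was not tested. Since the classes were set by a gene of dividing cells, this difference does not rank the lists independently of that choice.

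Replication genes were not confined to cells with high Mki67. Of the 75 Mki67-low cells, 66 had 9 or fewer replication genes and 9 had 13 to 27, with none between, in a split that was noticed after the values were seen. The 9 cells came from 4 library groups, and 2 of them had no Mki67 count. They had 1 to 4 of 16 G2/M genes. Among these Top2a had 5592 CPM in a cell of library group 1, 1411 CPM in 1 of library group 3, and 1060 and 937 CPM in 2 of library group 6. In the other cells of the 9 it had at most 60.9 CPM, and its median over all Mki67-low cells was 1.1 CPM. The cell with 1411 CPM also had 5 of 8 astroglial markers at 50 CPM. A median of 4914 genes had a count in the 9 cells and 4152.5 in the other 66. Dcx, a gene of postmitotic granule cells, was under 100 CPM in 5 of the 9 cells and in 8 of the other 66, with medians of 41.9 and 2266 CPM. Of the 9, 7 had a Notch2 count, against 17 of 66. At the other end, 9 of 32 Mki67-high cells had 9 or fewer replication genes. The lowest, in library group 5, had 3 and 4 replication genes, and the latter carried 14 of the 16 G2/M genes and 4780 CPM of Top2a.

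Within the Mki67-high class, the number of replication genes did not follow Mki67 or the G2/M genes closely. Over the 32 cells, which share library groups and differ in depth, Spearman's rho of the number of replication genes was 0.06 with Mki67 CPM, 0.21 with the number of G2/M genes, 0.31 with total counts and 0.46 with genes detected. Without the cells of unusual depth the values were 0.15, 0.05, 0.16 and 0.34 over 30 cells. In all, 12 Mki67-high cells had 20 or more replication genes and 16 had 8 or more G2/M genes, 7 had both and 11 neither.

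Co-detection of gene pairs was measured by the phi coefficient, which is 1 where a pair of genes is found in the same cells and below 0 where they avoid each other. Over the 39 replication genes detected in 20 to 80% of Mki67-high cells, the 741 pairs had a median phi of 0.24 (range -0.25 to 0.75), and 91.9% were above 0. The median over all pairs of the 4610 genes in that range of detection was 0.15. Without the cells of unusual depth the medians were 0.15 and 0.05, so both values were lower without those cells. Pairs within the same role had a median of 0.23 and pairs of different roles 0.24. No p-values are given, since the cells share library groups and depth.

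Lig1 and Rrm1 had the highest phi, with 16 cells with both, 12 with neither, 2 with Lig1 alone and 2 with Rrm1 alone (phi 0.75, or 0.73 without the cells of unusual depth). Pold3 and Pole, subunits of polymerases delta and epsilon, followed with 0.72, and Gins4 with Pold3 and Orc3 with Pold3 had 0.65 and Pole with Rpa2 0.62. The lowest values involved Mcm5. Its phi was -0.25 with Rfc1, -0.24 with Orc6 and -0.20 with Gmnn. The last pair stood in 2 cells together against 8 with Gmnn alone and 9 with Mcm5 alone. Those 2 cells were the Mki67-high cells of unusual depth. Without them Mcm5 and Gmnn shared no cell and had the lowest phi of all pairs, -0.39. The other low values are not given without these cells. Cdc45 with Rfc3 and Mcm3 with Rfc4 had -0.18 each. The ribonucleotide reductase subunits, which act as a complex, were found together in 16 of 32 Mki67-high cells, with 2 cells for Rrm1 alone and 5 for Rrm2 alone. In Mki67-low cells the order was reversed, with 7 cells for both, 9 for Rrm1 alone and 1 for Rrm2 alone.

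E2F letters in the promoter did not go with a larger difference between the classes. Over the 15 genes with the letters printed above, the median difference of shares was 25 percentage points, and over the 23 genes with a window and no such letters it was 25.5 points. Of the genes that were higher in 6 of 6 library groups, 2 held the letters and 8 had a window without them. For the CCAAT letters the medians were 27.3 points in 24 genes with and 16.6 points in 14 genes without. These differences between gene groups were not tested.

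The study divided its progenitors by Notch2, the receptor it followed, and the same division was made among the Mki67-high cells, with at least 1 Notch2 count as positive. The 20 Notch2-positive cells had a median of 20 replication genes (range 6 to 43), and the 12 Notch2-negative cells a median of 10 (3 to 21). The positive cells also had more genes of any kind detected, with medians of 5180 and 4380, and higher median totals, 4.48e+06 against 3.23e+06 counts. A class set by at least 1 Notch2 count can itself depend on depth. The part of depth and detected genes in the difference was not tested. Without the cells of unusual depth, both of them Notch2-positive, the medians of replication genes were 18.5 and 10. Library group 4 had no Notch2-negative Mki67-high cell.

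By gene, edgeR called 0 of 42 replication genes and 0 of 6906 genes between the Notch2 classes. At an unadjusted p under 0.05 there were 775 genes (11.2%) and 9 replication genes (21.4%). Of these 9, 7 were higher in positive cells. The lowest adjusted p by edgeR was 0.223, shared by Pole and Fen1. Limma called none of them. DESeq2 called 7 replication genes higher and none lower, Mcm10, Rfc5, Rnaseh2a, Pold1, Fen1, Gmnn and Orc5, against a background of 11.3% of genes called higher. Gmnn was found in 9 of 20 positive and 1 of 12 negative cells, and Rnaseh2a in 10 of 20 and 1 of 12. Rrm2 ran the other way in level, with a mean of 308 CPM over positive and 1441 CPM over negative cells (log2 fold change -2.79, edgeR adjusted p = 0.386). The sums of Notch2-negative cells held 1 to 4 cells each, and the calls of DESeq2 were made by that tool alone.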

How the data were processed

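The authors aligned reads of single-cell Smart-seq libraries to mm10 with STAR 2.4.1d and counted them per gene with HTSeq 0.6.1, as the submitters' processing notes name them, and deposited raw counts without normalization. Annotation and strand setting of the counting are not given in the sources used here. All 109 columns were matched to samples by title. From these counts CPM were computed in Python 3.11.15 with pandas 2.3.3. The Mki67 limits of 100 and 10 CPM, the genes and the other lists were chosen with earlier results of these data known. Counts were summed per class and library group, filtered with filterByExpr and tested with edgeR 4.0.16 (TMM, quasi-likelihood, Benjamini-Hochberg, threshold 0.05) in R 4.3.3, without Mki67 and, for the Notch2 classes, Notch2. Alternatives used DESeq2 1.42.0, limma 3.58.1 (trend on) and other classes. Fits were tested on simulated data with a smaller spread between sums than in these data, so that test does not show how well changes are recovered here. Named were up to 3 genes a role by mean CPM in Mki67-high cells, Cdt1 and Gmnn, up to 3 called genes and otherwise the 2 of smallest p in each role, up to 3 called genes of other lists, Mki67, Top2a and Dcx, and the 5 highest and 5 lowest pairs. Other genes were named after their values were seen. Gene positions and overlaps came from GENCODE of GRCm38, promoters from RefSeq. Nothing says that library groups are separate animals, so p-values measure the spread between these groups, which may be technical. Libraries carry no molecular identifiers, so intervals and limits cover counting error only. Protein sequences were not analysed here.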

Additional observations from a re-analysis of the deposited data

Results flagged for a closer look

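Values of the library groups were set against each other for 19 replication genes and for the mean number of genes detected, in 40 sets of 6 values, and in 9 sets a single library group lay far from the other 5. The rule flags about 1 in 20 sets of normally distributed values. Sums that a single cell can set need not follow that distribution, so the 9 flagged sets cannot be set against this rate. In Mki67-high sums the values that stood apart were Pole with 3262 CPM and Rpa1 with 1111 CPM in library group 2, and Tyms with 1050 CPM in library group 6. In Mki67-low sums they were Cdt1 with 326.4 CPM in library group 1, Mcm10 with 109.4 CPM and Gmnn with 223.9 CPM in library group 2, Pole with 784.3 CPM and Rnaseh2a with 279.9 CPM in library group 3, and Pola1 with 118.7 CPM in library group 5. For Pole, Mcm10 and Rnaseh2a a single cell held 65.8%, 82.3% and 77.8% of the Mki67-low counts. The 2 cells between the Mki67 limits, which entered no comparison, had 27 and 22 replication genes, more than the median of Mki67-high cells, and the latter was the cell of 15071 counts, in which 1 count is worth 66.4 CPM.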

How the results depend on the processing

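With edgeR on the sums, 0 replication genes were called between the Mki67 classes under every alternative run, while all genes called went from 6 to 2 at an adjusted p under 0.01 and to 0 with any Mki67 count against none (1534 genes at an unadjusted p under 0.05), and lay between 2 and 8 when a library group was left out. DESeq2 called 724 genes, 3 of them replication genes, and limma 180 and 6. Without the cells with at least 5 of 8 astroglial markers at 50 CPM, 29 Mki67-high and 73 Mki67-low cells remained. In that fit edgeR called 9 of 7954 genes, 3 of them lower in Mki67-high cells, and 0 of 41 replication genes. Alternatives added after seeing the data gave limma counts of 113 and 4 without the cells of unusual depth, and, leaving out library groups 1 to 6 in turn, of 180, 156, 94, 89, 85 and 106 genes with 4 to 8 replication genes. Same-numbered library groups of the classes correlated at 0.0435 to 0.125 in their deviations, not above 0.1 in every pair, so they were not paired, although 5 of 6 correlated best with their own group. With the library group as replicate block edgeR called 6 genes and 0 replication genes, and limma 334 and 14. Between the Notch2 classes, DESeq2 called 876 genes, 7 of them replication genes, against 0 by limma in the single fit run and 0 by edgeR in every fit, replicate block included. The log2 fold change of Pole2 turned to -1.88 with the replicate block and to -1.78 and, by limma, -0.22 without library group 1, with edgeR values of -1.78 to 4.91 over the 6 groups left out. Fen1 turned to -0.40 and Gins1 to -0.20 with any Mki67 count against none, and Fen1 to -0.042 without library group 4, in a range up to 2.61. Counting a gene with 1 count as detected gave medians of 25.5 and 16 genes per cell. With DESeq2's size factors the median log2 fold change of all genes moved from -0.18 to 0.09. Every Mki67 sum held 3 or more cells, so a minimum of 2 changed nothing. The cause of these changes was not tested. Sums of 3 to 15 cells with a coefficient of variation of 172% limit what single genes can show.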
